A study of Canis lupus familiaris with 34 samples.

Results

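Genes of the immunoproteasome and of MHC class I antigen processing, 10 in all (PSMB8, PSMB9, PSMB10, PSME1, PSME2, TAP1, TAP2, TAPBP, B2M and DLA-64), were followed across dog tumors. Of 15115 genes that had a probe set of their own on the Canine_2 array, these 10 genes were taken by symbol, and they had 23 of the 29254 probe sets that carry exactly 1 gene symbol. The genes were chosen by their measured levels in these tumor types, so their differences between tumor types are described here without a test. Levels are log2 values from RMA, which combines the probes of a probe set into 1 value per array, so a difference of 1 stands for a doubling. A gene with several probe sets is given by its lead probe set, the one with the highest mean over all arrays.

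The 34 arrays held RNA from 1 dog each. Primary lymphoid tumor cells came from 6 dogs with diffuse large B cell lymphoma (DLBCL), 6 with T-zone lymphoma, 1 with marginal zone B cell lymphoma, 2 with chronic lymphocytic leukemia (CLL) and 1 with acute lymphoblastic leukemia (ALL). All were golden retrievers except the dog with ALL, Rascal, a golden retriever mix. Cultured cells came from 10 hemangiosarcomas, 5 osteosarcomas of bone from golden retrievers, and 3 splenic hematomas, a lesion that is not malignant. The hemangiosarcoma lines were from 6 golden retrievers (ChadG4, ChadG6, ChadG8, Frog, Journey and Tucker), a Rottweiler (Joey), a Golden Retriever x Great Pyrenees cross (DD1), a Portuguese Water Dog (ChadP9) and a Dalmatian (Dal4), and the hematomas were from a golden retriever (Pippin), a Standard Poodle (Baxter) and a Keeshond (Kylie). The sample labels name no treatment of the dogs or of the cells. Each line or culture is 1 tumor or lesion grown from its earliest available passages, and every lymphoid sample was uncultured, so culture and tumor type cannot be told apart.

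The proteasome cuts cytosolic proteins into peptides. In cells exposed to interferon, and constitutively in many immune cells, the catalytic subunits PSMB8, PSMB9 and PSMB10 replace PSMB5, PSMB6 and PSMB7 in the core, and the PA28 activator made of PSME1 and PSME2 can cap it. Peptides then enter the endoplasmic reticulum through the transporter TAP1 and TAP2, tapasin (TAPBP) holds empty class I molecules next to that transporter, and the peptide is shown at the cell surface by a class I heavy chain, such as the one encoded by the dog gene DLA-64, bound to its light chain B2M. In the dog RefSeq annotation (assembly UU_Cfam_GSD_1.0), TAP2, PSMB8, TAP1 and PSMB9 follow one another as consecutive genes, and only EMC9 lies between PSME1 and PSME2.

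Array medians ranged between 5.57 and 5.77. Of the 7 lymphocyte markers measured, all 7 were above the array median on most lymphoid arrays and 2 (CD3E and CD2) on most cultured arrays. Their mean level was 8.45 to 10.9 on the lymphoid arrays and 4.46 to 5.25 on the cultured arrays. All 8 fibroblast and mural markers were above the median on most cultured arrays. Of 8 endothelial markers, only KDR was above it on most hemangiosarcoma arrays, only KDR and CLDN5 on most hematoma arrays, and 1 of 5 osteoblast markers, BGLAP, on most osteosarcoma arrays, so the defining markers of the labelled cell types were largely at low levels in the cultures. Among the hemangiosarcoma lines, ChadG4 and Dal4 stood furthest apart (mean correlation of 0.956 and 0.955 with the other lines, against 0.965 to 0.975 for the remaining 8).

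The catalytic subunits PSMB8 and PSMB9 were the members with the widest gap in level between lymphoid and cultured samples, together with DLA-64. PSMB8 ranged between 10.81 and 11.88 in DLBCL (median 11.12) and between 11.13 and 12.18 in T-zone lymphoma (median 12.05). It was 11.21 in the marginal zone lymphoma, 12.01 and 12.09 in CLL and 11.26 in ALL. The hemangiosarcoma lines had 4.17 to 5.18 (median 4.60), the osteosarcoma lines 6.36, 6.17, 6.67, 6.17 and 5.58, and the hematoma cultures 4.99, 5.93 and 4.98. No cultured sample came near the lymphoid range, and PSMB8 was above the array median in 0 of 10 hemangiosarcoma lines, 4 of 5 osteosarcoma lines and 1 of 3 hematoma cultures. Its mean was 11.57 ± 0.50 in lymphoid samples and 5.16 ± 0.78 in cultured samples (SD, n = 16 and 18), a difference of 6.41. With most cultured values below the array median, that difference is not given as a fold.

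PSMB9 had the same split with higher levels in culture. It spanned 11.27 to 12.66 in DLBCL (median 12.42) and 12.78 to 13.56 in T-zone lymphoma (median 13.24), and was 12.53 in the marginal zone lymphoma, 12.26 and 13.00 in CLL and 12.06 in ALL. The hemangiosarcoma lines spread between 5.50 in Joey and 7.32 in Tucker (median 6.58), the osteosarcoma lines had 9.39, 7.68, 9.11, 7.40 and 8.16, and the hematoma cultures 6.71, 8.23 and 7.10. The lowest lymphoid sample, the DLBCL of Benson, was thus above the highest cultured one, OSCA20. Means were 12.66 ± 0.61 in lymphoid and 7.20 ± 1.05 in cultured samples (SD), which differ by 5.45 or 43.8-fold.

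PSMB10, which supplies the remaining inducible active site, was well above the array median in every tumor type. It ranged between 9.68 and 11.48 in lymphoid samples and between 8.16 and 9.62 in cultured samples, so the groups did not overlap but lay close. The difference of means was 1.79 (10.54 ± 0.50 and 8.76 ± 0.47). The hemangiosarcoma lines had 8.16 to 9.14 (median 8.65), the osteosarcoma lines 9.39, 9.26, 8.21, 9.62 and 8.30, and the hematoma cultures 8.92, 9.50 and 8.24, so these 3 kinds of culture overlapped fully.

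Both PA28 subunits were also higher in lymphoid samples. PSME1 was 12.23 to 13.07 in lymphoid and 10.16 to 11.84 in cultured samples, a difference of means of 1.62. Within the cultures the osteosarcoma lines (11.68, 11.45, 11.36, 11.84 and 11.68) all lay above the hematoma cultures (10.98, 10.91 and 10.65). PSME2 was 11.10 to 12.75 in lymphoid and 8.93 to 10.96 in cultured samples, a difference of 2.12, and here the hemangiosarcoma (8.93 to 10.29), osteosarcoma (9.82, 9.53, 9.29, 10.96 and 10.23) and hematoma (10.13, 9.93 and 9.60) values ran through each other.

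Of the transporter subunits, TAP1 differed more than TAP2. TAP1 ranged between 10.31 and 12.54 in lymphoid samples, with its lowest value in ALL, and between 7.16 and 9.12 in cultured samples, a difference of means of 3.36 or 10.3-fold. TAP2 was 10.41 to 12.05 in lymphoid and 8.57 to 9.95 in cultured samples, a difference of 1.61. For TAP2 the hematoma cultures (9.84, 9.35 and 9.60) had the highest mean of the cultures, 9.60, but hemangiosarcoma (9.42), osteosarcoma (9.53) and hematoma overlapped.

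By lead probe set, tapasin was the only member whose lymphoid and cultured values overlapped. TAPBP was 8.15 to 9.39 in DLBCL (median 8.72), 8.50 to 9.89 in T-zone lymphoma (median 9.25), 9.04 in the marginal zone lymphoma, 8.27 and 8.34 in CLL and 8.11 in ALL. The hemangiosarcoma lines had 7.77 to 8.49 (median 8.15), the osteosarcoma lines 8.94, 8.19, 7.99, 8.02 and 8.82, and the hematoma cultures 8.53, 8.17 and 8.40. Thus 11 of the 18 cultured samples were above the ALL sample, and the leukemias lay within the range of the cultures. The difference of means was 0.56, or 1.47-fold.

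B2M, the class I light chain, was near the top of the array's scale (the highest value of any probe set was 14.98). It spanned 13.56 to 14.03 in DLBCL and 14.06 to 14.31 in T-zone lymphoma, and the highest values were those of CLL, 14.35 and 14.46. The hemangiosarcoma lines ranged between 11.77 in Dal4 and 13.25 in Joey (median 12.50), the osteosarcoma lines had 13.09, 12.83, 12.75, 13.16 and 12.59, and the hematoma cultures 13.02, 12.59 and 12.38. The lymphoid mean exceeded the cultured mean by 1.38 (14.04 ± 0.25 and 12.66 ± 0.40).

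DLA-64 was the class I heavy chain among the members. It was 9.41 to 11.29 in DLBCL (median 10.26), 11.27 to 12.61 in T-zone lymphoma (median 12.23), 10.93 in the marginal zone lymphoma, 11.69 and 10.94 in CLL and 11.52 in ALL. The hemangiosarcoma lines had 4.21 to 6.63 (median 5.09), the osteosarcoma lines 6.72, 5.12, 5.48, 7.38 and 7.48, and the hematoma cultures 5.11, 5.17 and 5.70. Means were 11.21 ± 0.995 in lymphoid and 5.61 ± 0.994 in cultured samples (SD), a difference of 5.60. It was above the array median in 4 of 10 hemangiosarcoma lines, 3 of 5 osteosarcoma lines and 1 of 3 hematoma cultures, so no fold is given here either. The single DLA-64 probe set is of a type whose probes can match several transcripts, so part of its signal may come from related class I genes, and this was not tested.

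**Figure D1:**
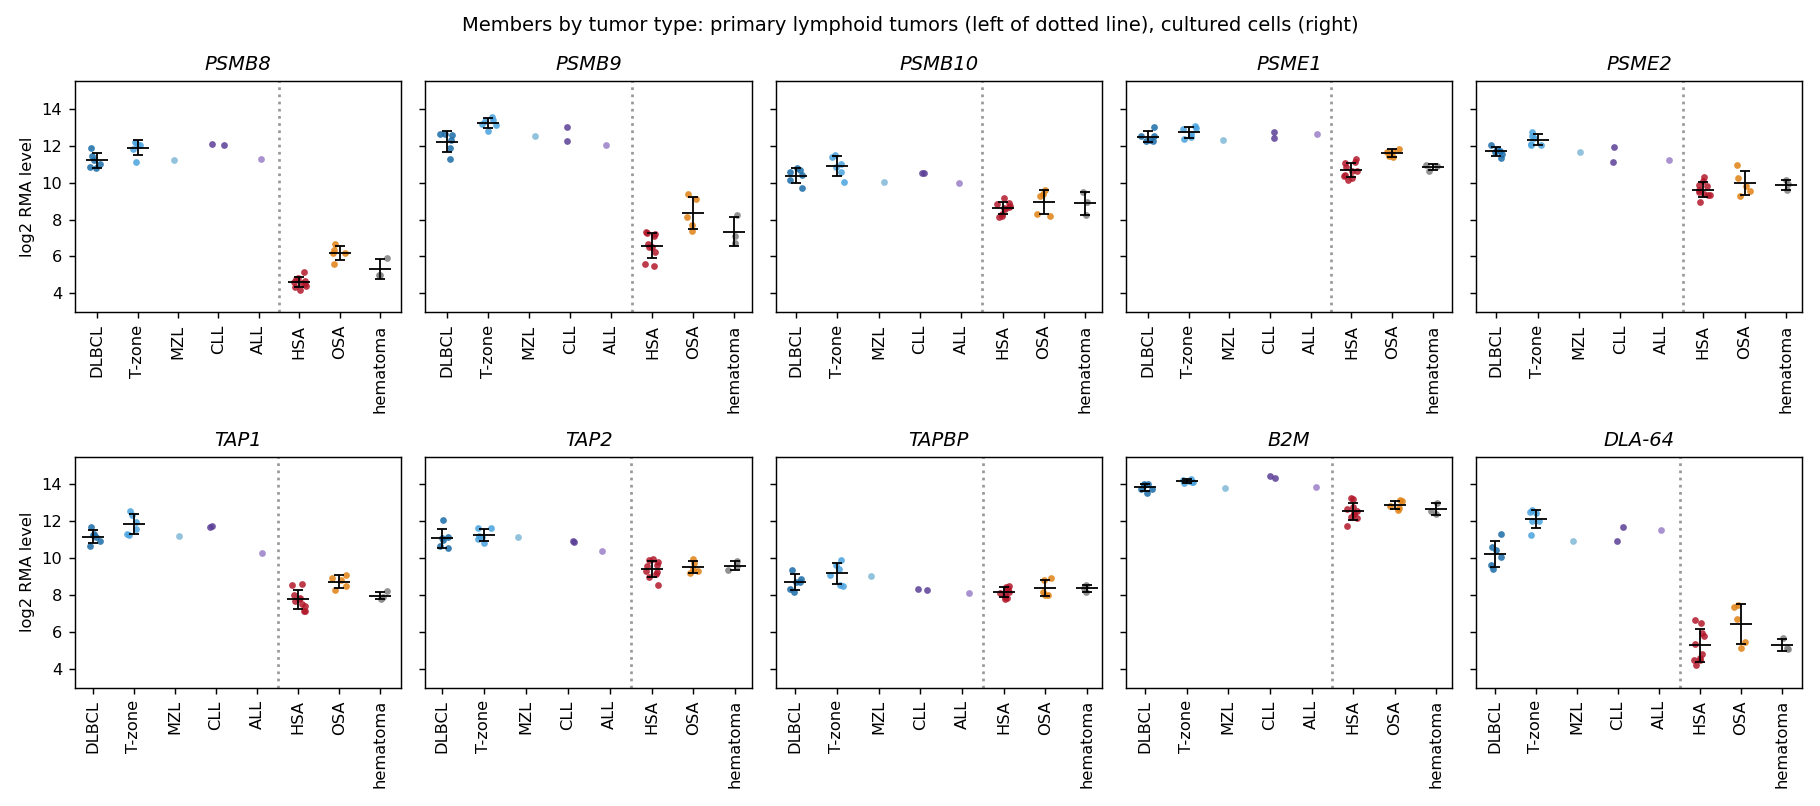
Level of each of the 10 genes (log2 RMA value of the lead probe set, y axis) on every array by tumor type (x axis; MZL, marginal zone lymphoma, HSA, hemangiosarcoma, OSA, osteosarcoma). Each point is 1 dog, and bars give the mean and SD for types with 3 or more dogs. For 9 of the genes every lymphoid point left of the dotted line lies above every cultured point right of it, and TAPBP is the exception.

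Across the lead probe sets, all 10 members were higher in lymphoid than in cultured samples (median difference 1.95, range 0.56 to 6.41), and 9 of 10 had groups that did not overlap. Over all 22063 probe sets tested, 2.85% had every lymphoid value above every cultured value and 4.54% the reverse, and the median difference was 0.06. Because the members were picked with these levels known, nothing is read from that contrast. Myeloid and dendritic markers moved with it too: 5 of 8 were above the array median on most lymphoid arrays and 2 on most cultured arrays, with mean levels of 6.18 to 8.17 and 4.43 to 4.94. The array controls differed between groups too. Hybridization controls averaged 10.30 to 11.51 on lymphoid arrays, 10.34 to 11.07 for osteosarcoma, 9.56 to 10.07 for hemangiosarcoma and 9.76 to 10.41 for hematoma. The 3′ minus 5′ difference of the actin control was 4.06 in ALL and 2.61 and 5.35 in CLL, against -1.01 to 1.85 in the cultures. In DLBCL it was -0.31 to 2.95, in T-zone lymphoma -1.81 to 2.19 and in the marginal zone lymphoma -0.39. The part of these markers and controls in the members' levels was not tested, and in bulk samples fewer cells of a type and less RNA per cell cannot be told apart.

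The order of the tumor types was similar from gene to gene. Hemangiosarcoma had the lowest mean for 9 of the 10 members, the exception being TAPBP, which was lower in the ALL sample. In most cases neighbors in that order were not separated, since hematoma and hemangiosarcoma values overlapped for all 10 genes. Among the lymphoid dogs, Benson (DLBCL) was lowest for 5 members (PSMB8, PSMB9, PSMB10, B2M and DLA-64) and Rascal (ALL) for 3 (TAP1, TAP2 and TAPBP). Benson's array also had the highest hybridization controls (11.51) and the highest array median (5.77) of all 34, and Rascal's actin difference of 4.06 was exceeded only by that of Forrest (5.35). Their part in these ranks was not tested. Within DLBCL, Benson was lowest for 8 of the 10, and within T-zone lymphoma, Fire was lowest for 5 and Rose for 4. Among the hemangiosarcoma lines no dog stood at one end throughout: Joey was highest for TAP1, TAP2 and B2M but lowest for PSMB9, and ChadG4 was lowest for PSMB10, TAPBP and DLA-64 but highest for PSME2.

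Of all 23 probe sets, 22 had a higher mean in lymphoid samples, and 15 had groups that did not overlap. In all, 21 of the 23 passed the filter on low values in this comparison. A second PSMB8 probe set differed by 6.16, against 6.41 for the lead one, and the 3 TAP1 probe sets differed by 2.50, 3.36 and 3.55. Both B2M probe sets differed by 1.38 and 1.71. The exception was a TAP2 probe set, with a mean of 7.70 in lymphoid and 7.95 in cultured samples, a difference of -0.24, whereas the other TAP2 probe sets differed by 1.61 and 1.88. It was above the array median on all 34 arrays, so its level was not at the bottom of the scale, and the probe sets of TAP2 disagree.

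**Figure D2:**
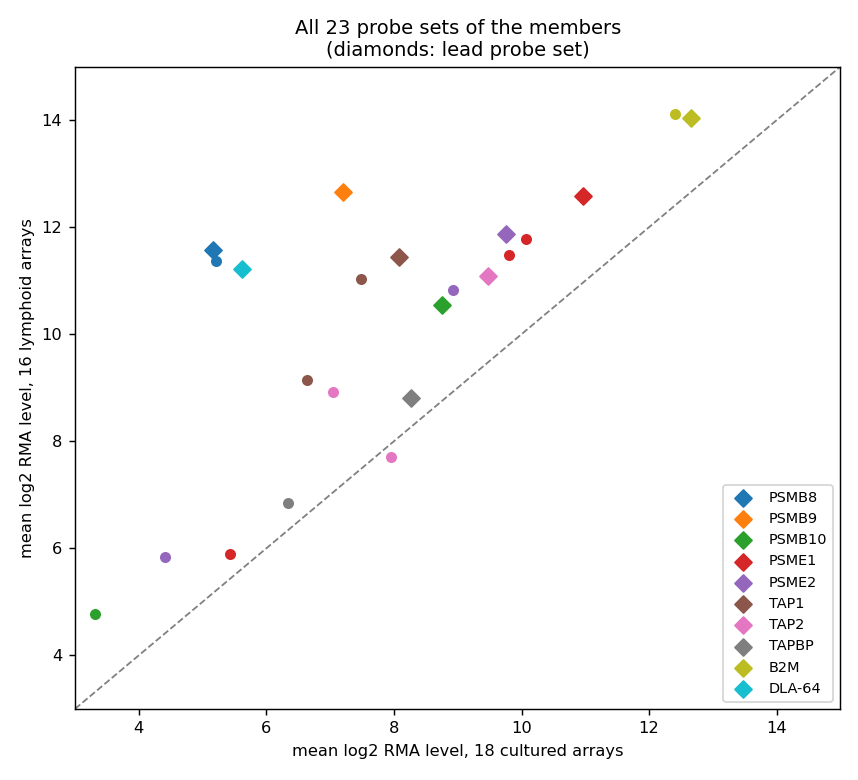
Mean log2 RMA level of all 23 probe sets on the 16 lymphoid arrays (y axis) against the 18 cultured arrays (x axis), colored by gene, with the lead probe set of each gene as a diamond. The dashed line marks equal means, and 1 TAP2 probe set (7.95 cultured, 7.70 lymphoid) lies below it.

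Genes of the same pathway that are not members were tested with limma, with p-values adjusted over all tested probe sets. Their lists, too, were drawn up with earlier results of these data known. The counts and p-values of pathway genes here and below are therefore no independent support. In the comparison of lymphoid with cultured samples, where 43.4% of all probe sets passed an adjusted p of 0.001 (21.4% higher in lymphoid and 22% higher in cultured samples), 33 of 66 pathway genes passed, 20 higher and 13 lower in lymphoid samples. The counterparts of the inducible catalytic subunits did not follow them. PSMB5, which PSMB8 replaces, averaged 11.26 ± 0.50 in lymphoid and 12.46 ± 0.26 in cultured samples (difference -1.20, SE 0.14, limma adjusted p = 1.78e-09). PSMB6, which PSMB9 replaces, averaged 11.42 and 11.59 (difference -0.17, limma adjusted p = 0.154). PSMB7 had no probe set of its own. None of the 11 other subunits of the core particle passed.

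The regulatory particle and the remaining activators gave only lower calls in lymphoid samples. Of 14 subunits of the 19S particle, which unfolds substrates and feeds them to the core, 6 were lower and none was higher. The widest of these differences were those of PSMD2 (-1.12), PSMD8 (-0.90), PSMD7 (-0.72) and PSMC6 (-0.63). Among 6 activators, inhibitors and assembly factors, 1 passed, PSME4, which encodes the activator PA200 (-1.10, SE 0.16, limma adjusted p = 3.24e-07).

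Genes that load and trim class I peptides were divided. Of 11, 2 were higher in lymphoid samples, the tapasin relative TAPBPL (2.18, SE 0.25) and the endoplasmic reticulum aminopeptidase ERAP1 (1.43, SE 0.20), and 4 were lower, among them the chaperone PDIA3 (-1.26, SE 0.18) and the cytosolic aminopeptidase LAP3 (-0.99, SE 0.15). All 3 other class I genes measured were higher in lymphoid samples. DLA-79 averaged 10.76 ± 1.58 in lymphoid and 5.31 ± 0.84 in cultured samples (difference 5.45, SE 0.41). DLA88 differed by 2.42 (SE 0.35) and FCGRT, the neonatal Fc receptor, by 1.79 (SE 0.35). All DLA-79 values of osteosarcoma (4.48 to 5.35) and hematoma (4.46 to 5.45) were below the array medians, so the size of its difference rests on low values. DLA-79 passed the low-value filter only with the lymphoid group, in which it was higher, so no p is given for it.

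Transcriptional regulators of class I genes were mostly higher in lymphoid samples: 8 of 11 tested were higher and 1 was lower. NLRC5, the class I transactivator, ranged between 6.45 and 10.03 in lymphoid and between 4.94 and 5.57 in cultured samples, with no overlap (difference 3.06, SE 0.29). Every cultured NLRC5 value was below its array median. The gene thus passed the low-value filter only through the lymphoid group, so no p is given for it. The size of its difference rests on low cultured values. RFX5, a subunit of the RFX complex that binds class I promoters, ranged between 8.82 and 11.29 in lymphoid and between 6.27 and 8.01 in cultured samples (difference 2.96, SE 0.18, limma adjusted p = 3.21e-16). IRF1, an interferon-induced transcription factor, differed by 2.23 (SE 0.28) and RFXANK by 1.20 (SE 0.17), while RFXAP, the third RFX subunit, was lower in lymphoid samples (-0.95, SE 0.21). Of 8 interferon receptor and signaling genes, 7 were higher and none was lower, led by IRF9 (1.90, SE 0.23), IFNGR1 (1.29, SE 0.25), IFNAR1 (1.20, SE 0.24) and JAK2 (0.92, SE 0.13).

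**Figure D3:**
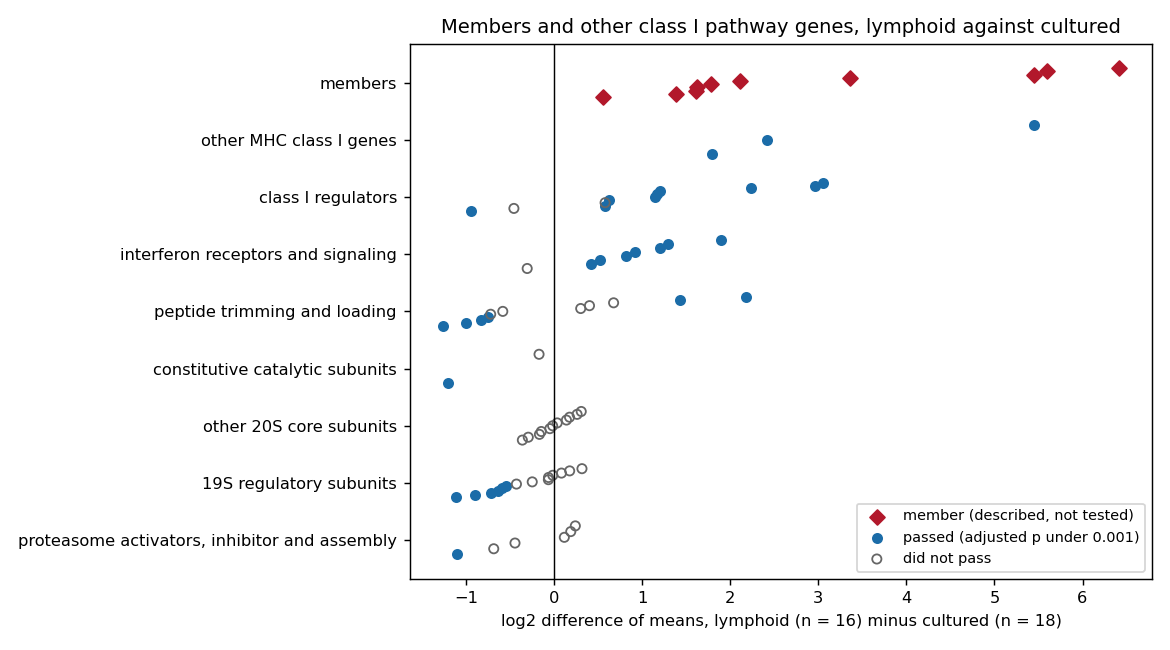
Difference of mean log2 level, 16 lymphoid minus 18 cultured samples (x axis), for the 10 members (diamonds, not tested) and for pathway genes in 8 lists (y axis), filled where limma's adjusted p was under 0.001. The regulators, interferon genes and class I genes lie mostly right of 0, while the PSMB5 point (-1.20) and all passing 19S subunits lie left of it.

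Among the cultures, the 10 hemangiosarcoma lines were set against the 5 osteosarcoma lines. All 10 members had a lower mean in hemangiosarcoma (median difference -0.64, range -1.76 to -0.11), and the groups did not overlap for PSMB8, PSMB9 and PSME1. Over 22857 tested probe sets, 2.62% had every osteosarcoma value above every hemangiosarcoma value and the median difference was 0.03. PSMB8 was below the low-value filter in this comparison and so is not among those probe sets. PSMB8 averaged 4.61 ± 0.28 in hemangiosarcoma and 6.19 ± 0.40 in osteosarcoma, PSMB9 6.59 ± 0.66 and 8.35 ± 0.87, and PSME1 10.68 ± 0.38 and 11.60 ± 0.19 (SD, n = 10 and 5). TAP1 differed by -0.94, with 8 of 10 hemangiosarcoma lines below the lowest osteosarcoma line, and DLA-64 by -1.15, with 5 of 10 below it. PSMB10 (-0.33), PSME2 (-0.35), TAP2 (-0.11), TAPBP (-0.23) and B2M (-0.33) differed by less, and all overlapped. Leaving out 1 osteosarcoma line turned no member's sign but moved the smaller differences, PSMB10 to -0.17 and PSME2 to -0.10 without OSCA75, TAP2 to -0.01 without OSCA71 and TAPBP to -0.10 without OSCA20. The second PSMB8 probe set differed by -0.53, against -1.58 for the lead probe set.

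In the same comparison 18 of 64 pathway genes passed an adjusted p of 0.05 (27.8% of all probe sets did, 16.1% higher and 11.7% lower in hemangiosarcoma), 11 higher and 7 lower in hemangiosarcoma. Most proteasome genes did not pass. Those that did were 4 of 14 19S subunits, 2 of 6 activators, inhibitors and assembly factors and 1 of 11 other core subunits. Neither of the 2 constitutive catalytic subunits tested passed. All 7 were higher in hemangiosarcoma, as were 16.1% of all probe sets, so nothing is read from their number. They were the PA28γ gene PSME3 (0.81, SE 0.19, limma adjusted p = 0.00496), PSME4 (0.71), the core subunit PSMA2 (0.68) and the 19S subunits PSMD11 (0.64), PSMD2 (0.52), PSMC3 (0.45) and PSMC2 (0.44). Some of these calls were lost when 1 osteosarcoma line was left out: without OSCA59 the limma adjusted p was 0.0572 for PSMA2, 0.0572 for PSMD2, 0.0582 for PSMC2 and 0.111 for PSMD11, and PSMD11 was also lost without OSCA23 (0.0634) or OSCA75 (0.117). All osteosarcoma lines were from golden retrievers, and with the hemangiosarcoma lines limited to that breed 5 of the 7 no longer passed, PSMA2 (0.0604), PSME4 (0.063), PSMD11 (0.145), PSMD2 (0.0552) and PSMC2 (0.0594). PSME3 (0.0411) and PSMC3 (0.0468) still did. Each of these subsets holds fewer lines than the main comparison, and the part of that in the losses was not tested.

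Among class I genes, FCGRT was lower in every hemangiosarcoma line, 6.50 to 8.94, than in any osteosarcoma line, 9.17 to 11.05 (difference -1.84, SE 0.38, limma adjusted p = 0.00251). DLA88 ran the other way, with 11.18 ± 0.81 in hemangiosarcoma and 9.47 ± 1.23 in osteosarcoma (difference 1.71, SE 0.49, limma adjusted p = 0.0167), but was not called without OSCA23 (0.0548) or OSCA75 (0.0514), nor with golden retriever lines only (0.0781). IRF1 averaged 7.17 ± 0.38 in hemangiosarcoma and 8.04 ± 0.41 in osteosarcoma (difference -0.88, SE 0.21, limma adjusted p = 0.00654). RFX5 differed by -0.47 (limma adjusted p = 0.0932), and NLRC5 was below the filter in both groups, with means of 5.19 in hemangiosarcoma and 5.30 in osteosarcoma.

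The trimming and loading genes that passed were ERAP2 (1.45) and LNPEP (1.41), both aminopeptidases and higher in hemangiosarcoma, and LAP3 (-0.83), TAPBPL (-0.62) and the chaperone CALR (-0.91), lower in it. For ERAP2 and LNPEP the osteosarcoma means, 4.91 and 5.20, were below the array medians, so the size of these differences rests on low values. The CALR call was lost without OSCA23 (limma adjusted p = 0.0517) or OSCA75 (0.0611). Of the further regulators that passed, NFYA was higher in hemangiosarcoma (0.68) and RFXAP (-0.99) and NFYC (-0.68), another subunit of the NF-Y factor, were lower. RFXAP was not called without OSCA23 (0.101), OSCA59 (0.0535) or OSCA71 (0.0933), nor NFYC without OSCA23 (0.057) or OSCA71 (0.0638). With golden retriever lines only, CALR (0.0648), RFXAP (0.0789), NFYC (0.0854) and NFYA (0.0682) were not called. None of 8 interferon receptor and signaling genes passed. The arrays of these groups also differed in controls: the spiked hybridization controls averaged 9.56 to 10.07 in hemangiosarcoma and 10.34 to 11.07 in osteosarcoma, without overlap, and the 3′ minus 5′ difference of the actin control was 0.39 ± 0.40 in hemangiosarcoma and 1.27 ± 0.65 in osteosarcoma (SD). Their part in these differences was not tested.

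Against the 3 splenic hematoma cultures the members differed little. All 10 had a lower mean in hemangiosarcoma (median -0.21, range -0.75 to -0.04), but none had groups that did not overlap, against 0.562% of 23292 tested probe sets with every hematoma value above every hemangiosarcoma value and 0.987% the reverse. PSMB8 was below the low-value filter here too, and the other 9 members were above it. The widest were PSMB9 (6.59 ± 0.66 in hemangiosarcoma and 7.34 ± 0.79 in hematoma) and PSMB8 (4.61 ± 0.28 and 5.30 ± 0.55), both with their highest hematoma value in Baxter. Without Baxter the differences were -0.31 for PSMB9 and -0.38 for PSMB8, and the second PSMB8 probe set differed by -0.10, against -0.69 for the lead one. Signs were not stable either: PSMB10 was 0.04 without Baxter, B2M 0.06 without Pippin and DLA-64 0.15 without Kylie. DLA-64 means were 5.29 and 5.32, and 5 hemangiosarcoma lines lay below and 4 above the whole hematoma range. None of the 64 pathway genes tested passed limma's adjusted p of 0.1, where 0.266% of all probe sets did (62, but 7 without Baxter and 200 without Pippin).

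Within the lymphomas, DLBCL was compared with T-zone lymphoma, with 6 golden retrievers in each. All 10 members had a lower mean in DLBCL (median difference -0.57, range -1.89 to -0.17), and PSMB9 and B2M did not overlap. Over 21763 tested probe sets, 4.26% had every T-zone value above every DLBCL value and 3.49% the reverse, and the median difference was 0.04. DLA-64 had the widest difference, 10.25 ± 0.69 in DLBCL and 12.14 ± 0.50 in T-zone lymphoma (-1.89, or 3.71-fold lower in DLBCL), with 5 of 6 DLBCL samples below the lowest T-zone sample. PSMB9 averaged 12.22 ± 0.55 in DLBCL and 13.22 ± 0.27 in T-zone lymphoma, and B2M 13.85 ± 0.19 and 14.19 ± 0.08. PSMB8 (-0.70), TAP1 (-0.66), PSME2 (-0.62), PSMB10 (-0.51), TAPBP (-0.48), PSME1 (-0.24) and TAP2 (-0.17) overlapped. All 23 probe sets of the members had a lower mean in DLBCL.

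**Figure D4:**
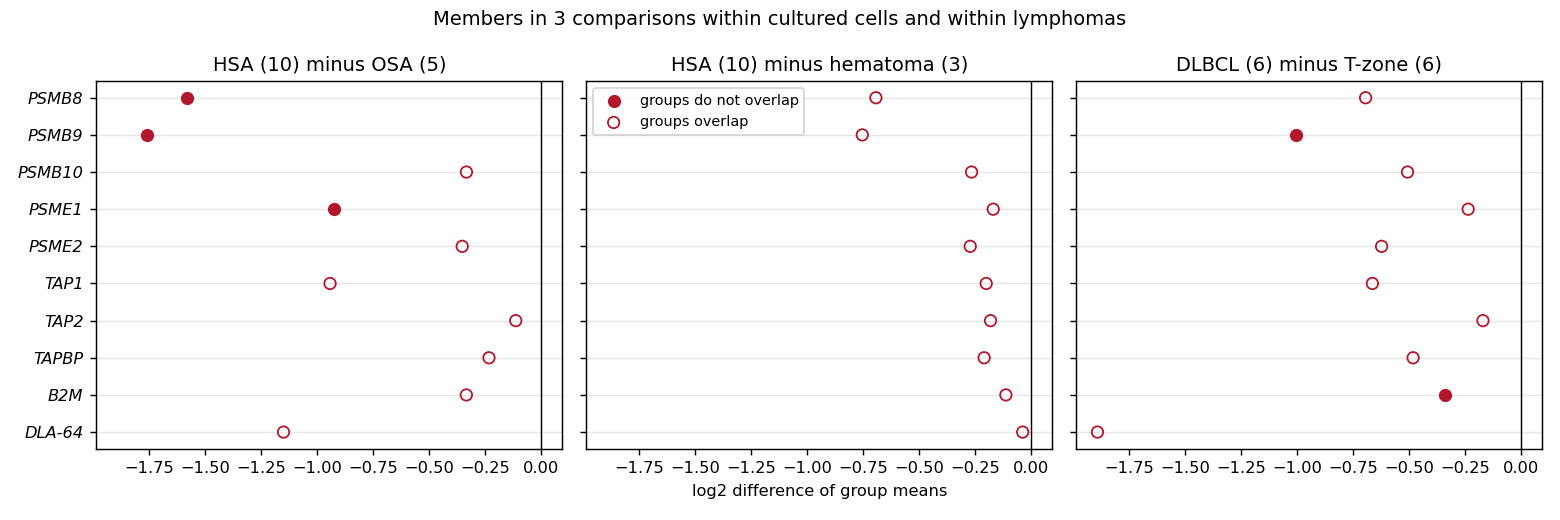
Difference of group means (log2, x axis) for each member (y axis) in 3 comparisons, hemangiosarcoma (HSA) minus osteosarcoma (OSA), HSA minus hematoma, and DLBCL minus T-zone lymphoma, with filled points where the groups do not overlap. All 30 points lie left of 0, and the filled ones are PSMB8, PSMB9 and PSME1 against osteosarcoma and PSMB9 and B2M in the lymphomas.

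In this comparison 7 of 68 pathway genes passed an adjusted p of 0.05 (18.5% of all probe sets did, 9.14% higher and 9.32% lower in DLBCL), 1 higher and 6 lower in DLBCL. NLRC5 was 6.67 to 7.98 in DLBCL and 9.25 to 10.03 in T-zone lymphoma, without overlap (difference -2.27, SE 0.23, limma adjusted p = 2.45e-05). IRF1 averaged 8.63 ± 0.39 in DLBCL and 10.27 ± 0.72 in T-zone lymphoma (difference -1.64, SE 0.31, limma adjusted p = 0.00261). DLA-79 differed by -2.67 (SE 0.45), FCGRT by -1.36 (SE 0.35), TAPBPL by -1.86 (SE 0.27) and IFNGR1, a chain of the interferon gamma receptor, by -1.35 (SE 0.38). RFXANK was the 1 gene higher in DLBCL (0.69, SE 0.22, limma adjusted p = 0.046). None of the 33 constitutive catalytic, other core, 19S and activator genes tested passed, PSMB5 (0.42, limma adjusted p = 0.354) and PSMB6 (-0.02, 0.956) included. The myeloid and dendritic markers averaged 6.42 to 6.91 in DLBCL and 6.18 to 7.89 in T-zone lymphoma, which overlap, and the fibroblast and mural markers 5.53 to 9.02 and 5.35 to 7.08. The actin control's 3′ minus 5′ difference was 0.84 ± 1.17 in DLBCL (-0.31 to 2.95) and -0.39 ± 1.83 in T-zone lymphoma (SD), where Thunder (2.19) and Fire (1.73) lay apart from the other 4 dogs (-1.81 to -1.39). The part of these markers and controls was not tested.

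Breed was not used in picking the members, so within the 10 hemangiosarcoma lines the 6 golden retrievers were tested against the 4 dogs of other breeds. Over 22206 probe sets limma called 0 (0%) at an adjusted p of 0.1, with 741 at an unadjusted p under 0.05, and no member and none of the 64 pathway genes tested passed. DLA-64 was the 1 member whose breed groups separated. It was 4.21, 4.51, 4.47, 4.59, 5.36 and 4.81 in ChadG4, ChadG6, ChadG8, Frog, Journey and Tucker, against 6.50, 5.97, 6.63 and 5.81 in Joey, DD1, ChadP9 and Dal4. Every golden retriever line was below every line of another breed, which held for 0.302% of all tested probe sets (the reverse held for 0.108%). The means were 4.66 ± 0.40 in golden retrievers and 6.23 ± 0.40 in other breeds (difference -1.57). Limma's adjusted p over all probe sets was 0.654.

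DLA-64 was above the array median in 4 hemangiosarcoma lines, those of the other breeds, and below it in all 6 golden retriever lines. It thus passed the low-value filter only through the group in which it was higher, so the separation is given as a description and no exact p is reported for it. The 5 osteosarcoma lines, all from golden retrievers, had 5.12 to 7.48, and Pippin, the golden retriever with a hematoma, had 5.11 against 5.17 and 5.70 in the hematomas of other breeds. By its lead probe set, DLA88 averaged 11.03 ± 0.88 in golden retriever lines and 11.40 ± 0.77 in the other lines (limma adjusted p = 0.999). A second DLA88 probe set was 12.75 in Joey, 12.13 in ChadP9 and 11.45 in Dal4. It was 2.59 in DD1 and 2.55 to 3.38 in the golden retriever lines. Some golden retrievers with other tumors had high values as well, such as OSCA59 (9.72) and Niki (12.47), so this is a description only.

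For the remaining 9 members no breed difference larger than the spread was found. Differences ranged between -0.30 for PSMB9 (95% interval -1.17 to 0.57) and 0.17 for TAP1 (-0.52 to 0.86). Without Joey these were -0.72 for PSMB9 and 0.47 for TAP1, and over the other single lines left out PSMB9 ranged between -0.20 and -0.14. Limma's adjusted p was 0.999 for the 8 tested, and exact permutation p-values over the 210 possible divisions were 0.519 to 0.895 (two-sided). PSMB8, below the filter, averaged 4.60 ± 0.36 in golden retriever lines and 4.63 ± 0.13 in the others (exact permutation p = 0.871). With 6 and 4 lines the intervals remain wide, as that of PSMB9 shows.

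**Figure D5:**
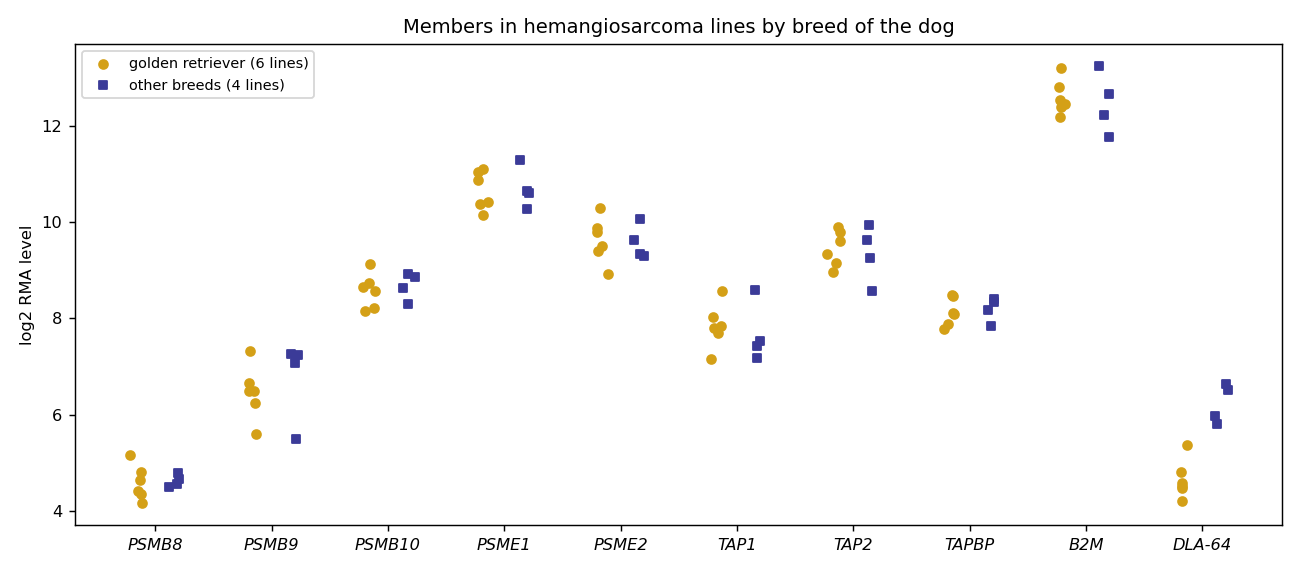
Log2 RMA level (y axis) of each member (x axis) in the hemangiosarcoma lines, with the 6 golden retriever lines as circles on the left of each pair and the 4 lines of other breeds as squares on the right. DLA-64 is the member whose groups separate, 4.21 to 5.36 in golden retrievers and 5.81 to 6.63 in other breeds.

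Genes whose pattern was most like that of the members were looked for after each tumor type's mean was taken off. Over the 18 cultured arrays, the mean of the 10 members correlated best with UCP2 (Pearson r = 0.83), SLC15A4 (0.80), BDH1 (0.79), TAF1C (0.77) and LRRC45 (0.76). Over 14 lymphoid arrays (types with a single dog drop out), the closest were ZNF879 (0.92), NDST2 (0.91), STAT2 (0.90), IRF9 (0.88) and EDC4 (0.88). STAT2 and IRF9 are partners in the interferon-activated factor ISGF3. These are the highest of 16605 and 15721 probe sets over few arrays, which share their normalization, and are given as a description only.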

How the data were processed

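RNA from 34 dogs was hybridized to Affymetrix Canine_2 arrays, 1 array per dog. The authors deposited log2 values computed by RMA (affy, named in the submitters' processing notes, versions not given in the sources used here). Whether all arrays were normalized in 1 run is not given there either. The table held 43035 probe sets, of which 175 control probe sets were left out of tests, and values between 2.03 and 14.98. Gene names came from the platform annotation: 29254 probe sets had 1 symbol, 439 several and 13167 none. No member or pathway gene was taken from the last 2 kinds. A pair annotated to both DLA-64 and DLA88 is only described. Array data give no read depth, and the number of arrays limits the precision. The study ran 1 sample in duplicate, but the labels give each array a dog of its own. The highest correlation between any 2 arrays was 0.985 (ChadG8 and DD1, different dogs), so no array was merged.

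Groups were the tumor type labels. Tests used limma 3.58.1 (lmFit and eBayes) in R 4.3.3 on the deposited log2 values, over probe sets that exceeded the array median on a number of arrays no less than the size of the smaller group, with Benjamini-Hochberg adjustment over all tested probe sets. Thresholds were 0.001 for lymphoid against cultured, 0.1 for hematoma and breed, and 0.05 for osteosarcoma and for the lymphomas. The scripts were tested on simulated data. Exact permutation tests of the breed contrast enumerated all 210 divisions of the lines. Comparisons that share arrays (hemangiosarcoma against osteosarcoma and against hematoma, and both within lymphoid against cultured) are not independent. Each dog is 1 sample, and Frog and Journey are distant relatives.

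The members and gene lists were chosen with earlier results of these data known. Named genes were every member, PSMB5 to PSMB7, NLRC5 and IRF1 where measured, and up to 4 genes per pathway list with the largest difference among those that passed. RFXAP in the lymphoid comparison, TAPBPL and RFX5 in the osteosarcoma comparison and DLA88 by breed were named beyond that rule, after their values were seen. The genes most like the members were the 5 with the highest correlation. Alternatives were no filter, quantile normalization, limma's trend with a robust prior, 1 fit of all arrays, other thresholds or dogs, leaving out single cultures, all probe sets, and unlogged means. No sequence or genome coordinate is given.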

Additional observations from a re-analysis of the deposited data

Results flagged for a closer look

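Among 40 combinations of a member and a tumor type with 4 to 10 dogs, 1 held a dog far from the rest. PSMB8 in T-zone lymphoma was 11.13 in Rose, and the nearest of the other 5 dogs had 11.82. That gap was 0.658 of the whole range, above the limit of 0.625 for 6 samples (Dixon's test). Chance alone flags about 1 in 20 such combinations.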

How the results depend on the processing

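The members' median difference kept its sign and stayed within its spread under every alternative run. Counts of all calls moved as follows. Lymphoid against cultured gave 14529 calls at an adjusted p of 0.05, in place of 9565 at 0.001. Hemangiosarcoma against hematoma gave 181 with all 34 arrays in 1 fit, in place of 62, and between 7 (without Baxter) and 200 (without Pippin) when 1 hematoma was left out. Hemangiosarcoma against osteosarcoma gave 3619 with golden retriever lines only, in place of 6365, and 7 pathway genes in place of 18. DLBCL against T-zone lymphoma gave 12 pathway genes after quantile normalization and 15 with all 34 arrays, in place of 7, and RFXANK was not called without the filter (adjusted p 0.0578) or with the robust trend (0.0532). Golden retrievers against other breeds gave 1 call without DD1, in place of 0. The cause of these shifts was not tested.

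Small differences changed sign. After quantile normalization PSMB5 was -0.012 against hematoma and -0.032 against osteosarcoma. Leaving out 1 hematoma gave -0.16 to 0.13 for PSMB5 and -0.31 to 0.085 for PSMB6, and leaving out 1 osteosarcoma line -0.11 (without OSCA59) to 0.21 for PSMB5. By breed, leaving out 1 line of another breed gave -0.031 to 0.090 for PSMB5, -0.11 to 0.077 for PSMB6, -0.27 to 0.10 for IRF1, -0.19 to 0.15 for PSME1, -0.049 to 0.21 for PSME2, -0.0021 to 0.47 for TAP1, -0.16 to 0.31 for TAP2, -0.17 to 0.014 for TAPBP and -0.11 to 0.38 for B2M. Without ChadG4 and Dal4, a choice made after seeing the data, PSMB9 was 0.027, PSME1 0.065, TAP2 -0.19 and B2M -0.072. No paired analysis was possible, because each array was from a different dog and no dog stood in more than 1 group.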

Other observations

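A second probe set of DLA88, another class I heavy chain gene, fell into separate ranges within tumor types. It was 7.69 to 12.75 on 12 arrays and 2.47 to 4.24 on the other 22, with nothing in between. The 12 were 3 of 6 T-zone lymphomas, 2 of 6 DLBCL, 1 of 2 CLL, 3 of 10 hemangiosarcoma lines, 1 of 5 osteosarcoma lines and 2 of 3 hematoma cultures. The 3 hemangiosarcoma lines were Joey, ChadP9 and Dal4, none of them from a golden retriever. The first DLA88 probe set had no such split: it was 9.53 to 12.20 in hemangiosarcoma, 8.38 to 11.49 in osteosarcoma and 10.50 to 11.75 in hematoma. A pair of probe sets annotated to both DLA-64 and DLA88 was left out of the members. One of the pair averaged 12.33 in hemangiosarcoma, 12.98 in osteosarcoma and 11.94 in hematoma, and the other 7.52, 8.38 and 6.72.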
